A study of Homo sapiens with 2 samples.

Results

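The interferon-stimulated genes IFITM1, IFITM2, IFITM3, IFI27, IFI6, ISG15, STAT2, OAS1 and OAS3 are described here in HepG2 cells with and without induction of SAMD4B. They are 9 of the 11582 genes that reached a mean of 1 TPM over both libraries. HepG2 is a human liver cancer line, and both groups carried a cassette that expresses SAMD4B when doxycycline (Dox) is present. SAMD4B is an RNA-binding protein related to fly Smaug. One library came from cassette-bearing cells grown with 1 µg/ml Dox for 48 h, and its counterpart from cassette-bearing cells grown without Dox. A treatment note shared by both samples names Dox, and the titles, which tell the samples apart, were followed. The labels do not say whether the line is a single clone. There was 1 library of polyadenylated RNA per group. No p-value or spread between replicates can be given, so every difference below is a difference between these 2 libraries. Cells given Dox without the cassette were not analysed here, so effects of Dox and of SAMD4B cannot be told apart. The 9 genes were chosen by their TPM with and without Dox in these same libraries, summed per gene and by transcript, so these values are a description and not a test.

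Interferons are secreted proteins by which cells warn each other of virus infection. Their receptors activate the JAK kinases, which phosphorylate STAT proteins, STAT2 among them. STAT2 is part of a transcription factor complex that binds the interferon-stimulated response element (ISRE) near the start of antiviral genes. Liver cells respond to interferon in this way, and several of the genes below also have a low level of expression when no interferon is added.

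The promoters are shown because the ISRE is the control element known for this group of genes. Its presence was not used to choose them. Genes named for their response to interferon commonly carry it, however, so its frequency below is not a test. The core searched for, on both strands, was GAAA, 2 bases of any kind (NN) and GAAA again, in RefSeq windows (GRCh38.p14) of 250 bases before to 50 bases after each start. Windows were found for 8 of the 9 genes, and 6 of these held the core at least 2 times, counting overlapping copies. Of all 35116 RefSeq windows, 3.57% held it at least once and 0.26% at least 2 times. In the lines that follow, each read 5′ to 3′ on the gene's strand, capitals mark the core.
IFITM1, upstream copy (chr11:313995-314014, plus strand): agcagGAAATAGAAActtaa
IFITM1, copy across the start (chr11:314029-314048, plus strand): tctgaGAAACTGAAAcgaca
IFITM3 (chr11:320885-320913, minus strand): gGAAAAGGAAActgttgaGAAACCGAAAc
IFI27 (chr14:94110618-94110660, plus strand): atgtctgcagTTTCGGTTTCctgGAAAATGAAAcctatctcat
IFI6 (chr1:27672266-27672358, minus strand): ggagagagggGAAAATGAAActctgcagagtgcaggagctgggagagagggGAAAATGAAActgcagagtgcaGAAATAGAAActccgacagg
ISG15 (chr1:1013374-1013409, plus strand): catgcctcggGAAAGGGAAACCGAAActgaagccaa
OAS3, upstream copy (chr12:112938326-112938345, plus strand): gaaacGAAACTGAAAgcagg
OAS3, copy near the start (chr12:112938457-112938476, plus strand): ggcggGAAAACGAAAccaga
IFI6 held 3 copies and the others 2, with those of ISG15 overlapping. In IFI27 the copies lie on opposite strands, while all others read on the gene's own strand. The windows of OAS1 and STAT2 held no match to these letters. In the transcript annotation, both IFITM1 stretches, the IFITM3 stretch and the OAS3 copy near the start lie inside exons. IFITM1-202, the main IFITM1 transcript here, begins at 313853, upstream of both copies. The other stretches lie outside annotated exons of their genes. A match is a run of letters and not a measured binding site.

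On matched transcripts of at least 600 nt, the library with Dox held an estimated 23746346 fragments and the library without Dox 18296315. Fragments on shorter or unmatched transcripts are not in these estimates. These depths were read from the steps between low values, as TPM tables state none. SAMD4B was at 261 TPM with Dox and 47.5 TPM without Dox, the direction that the labels give. All of the 8 hepatocyte-derived markers looked up were above 1 TPM, with a summed level of 20019 TPM with Dox and 22311 TPM without Dox. The defining leukocyte markers PTPRC and CD3E and the plasmacytoid dendritic cell markers CLEC4C, IL3RA and LILRA4 were listed at 0 in both libraries. The leukocyte list as a whole summed to 1762 TPM with Dox and 1601 TPM without Dox, nearly all of it LYZ, the lysozyme gene, at 1742 and 1583 TPM. Fibroblast and stellate markers summed to 7.53 TPM with Dox and 4.77 TPM without Dox, nearly all of it PDGFRB at 7.35 and 4.11 TPM, with COL1A1, COL1A2 and DCN lower with Dox and under 1 TPM. Endothelial markers summed to 4.64 TPM with Dox and 4.57 TPM without Dox.

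Of the 9 genes, 7 were higher with Dox and 2 lower, and 53% of all 11582 genes were higher. On the scale of TPM plus 1, IFITM1, IFITM2, IFI27 and OAS1 passed 1.5-fold upward, as did 5.32% of all genes. OAS3 passed 1.5-fold downward, as did 3.9% of all genes. None of the 9 passed 2-fold upward, where 1.62% of all genes lay. The median log2 fold change was 0.53 over the 9 genes and 0.02 over all genes. Since the choice of the 9 used these same values, nothing is read from that difference. Levels ran from IFITM3, with a mean of 462 TPM, down to OAS3, with a mean of 1.54 TPM. Calls are more common among low genes. At a mean of 1 to 5 TPM, where IFI27, IFI6, OAS1 and OAS3 lie, 11.6% of all genes passed 1.5-fold upward and 8.14% downward. At 30 TPM and above, where the IFITM genes and ISG15 lie, the shares were 2.20% and 1.56%.

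**Figure D1:**
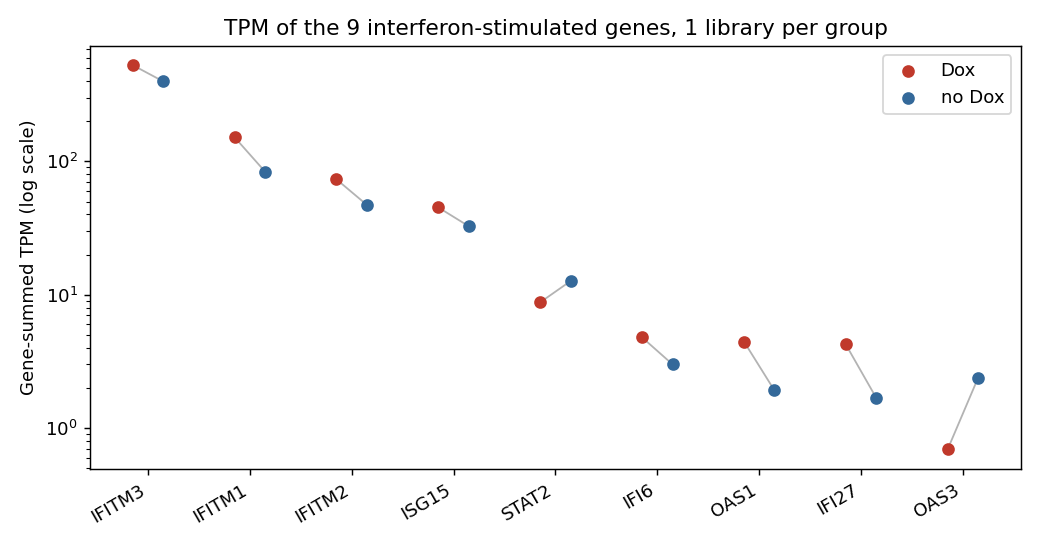
Gene-summed TPM (log axis) of each of the 9 genes in the library with Dox (red, left of each pair) and the library without Dox (blue, right), in order of mean level; grey lines join the 2 values of a gene. STAT2 and OAS3 are the 2 genes whose point with Dox lies below that without Dox, and levels span 527 TPM (IFITM3 with Dox) to 0.69 TPM (OAS3 with Dox).

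The IFITM genes code for small membrane proteins that keep enveloped viruses from fusing with the cell. IFITM1 acts mainly at the cell surface, and IFITM2 and IFITM3 mainly in endosomes. All are protein-coding and lie side by side on chromosome 11, within 307631 to 327537 (GRCh38). They were the most abundant of the 9 genes, and each was higher with Dox. IFITM1 (ENSG00000185885) was at 152 TPM with Dox and 83.6 TPM without Dox, a log2 fold change of 0.85. IFITM2 (ENSG00000185201) was at 73.3 TPM with Dox and 47.1 TPM without Dox, a log2 fold change of 0.63. IFITM3 (ENSG00000142089) was at 527 TPM with Dox and 397 TPM without Dox, a log2 fold change of 0.41. The order of the levels was therefore the same in both libraries, while the relative difference was largest in IFITM1 and smallest in IFITM3.

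Dividing estimated fragments by depth, the ratio of Dox to no Dox was 1.74 for IFITM1 (95% counting interval 1.59 to 1.91), from 1552 fragments with Dox and 687 without Dox. For IFITM2 it was 1.47 (1.29 to 1.66), from 733 and 385 fragments. For IFITM3 it was 1.27 (1.22 to 1.33), from 4935 and 2989 fragments. These exact binomial intervals take the depth estimate as given and hold counting error alone, not variation between cultures. The intervals of IFITM1 and IFITM3 do not overlap. On this scale IFITM2 was below 1.5-fold, at a log2 ratio of 0.55.

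Within each IFITM gene, a single transcript held most of the TPM in both libraries. IFITM1-202 was at 143 TPM with Dox and 76.3 TPM without Dox. The other IFITM1 transcript above 0.5 TPM, IFITM1-201, begins further upstream and was at 8.24 TPM with Dox and 7.28 TPM without Dox, with a fragment ratio of 1.08 (0.77 to 1.54). The ratio of IFITM1-202 was 1.80 (1.64 to 1.98), so the IFITM1 difference lay in IFITM1-202. Both transcripts have 375 coding bases. Their shares of the gene were 94.4% with Dox and 91.3% without Dox for IFITM1-202, and 5.44% with Dox and 8.70% without Dox for IFITM1-201.

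IFITM2-206 was at 61.2 TPM with Dox and 41.0 TPM without Dox, and IFITM2-202, which codes for as many bases (396), at 8.64 TPM with Dox and 4.33 TPM without Dox. The minor IFITM2-204, with 336 coding bases, was at 1.64 TPM with Dox and 1.21 TPM without Dox. IFITM2-203, annotated as a target of nonsense-mediated decay, was at 0.91 TPM with Dox and 0.55 TPM without Dox. IFITM2-201, whose annotated 3′ end coincides with that of IFITM1 at 315272, was at 0.92 TPM with Dox and listed at 0 without Dox. All 5 were higher with Dox, and IFITM2-206 made up 83.5% of the gene with Dox and 87.1% without Dox. IFITM3-201 held 99.9% of IFITM3 with Dox and 99.8% without Dox, at 526 and 396 TPM.

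IFITM genes share sequence, which limits how well fragments can be split among them. Of the 31-base words in IFITM1-202, 45.9% also occur in transcripts of other genes in the table, 40.4% in IFITM2. The share was 41.9% for IFITM3-201, with 24.0% in IFITM2, and 24.6% for IFITM2-206, with 19.3% in IFITM3. IFITM1 and IFITM2 also overlap by 351 exonic bases on the same strand. The sum over the 3 genes sets aside how fragments were split among them, save for differences in transcript length. It was 752 TPM with Dox and 528 TPM without Dox, a log2 fold change of 0.51, and its fragment ratio was 1.37 (1.32 to 1.42). IFITM3 made up 70.1% of this sum with Dox and 75.3% without Dox, while IFITM1 made up 20.2% with Dox and 15.8% without Dox.

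**Figure D2:**
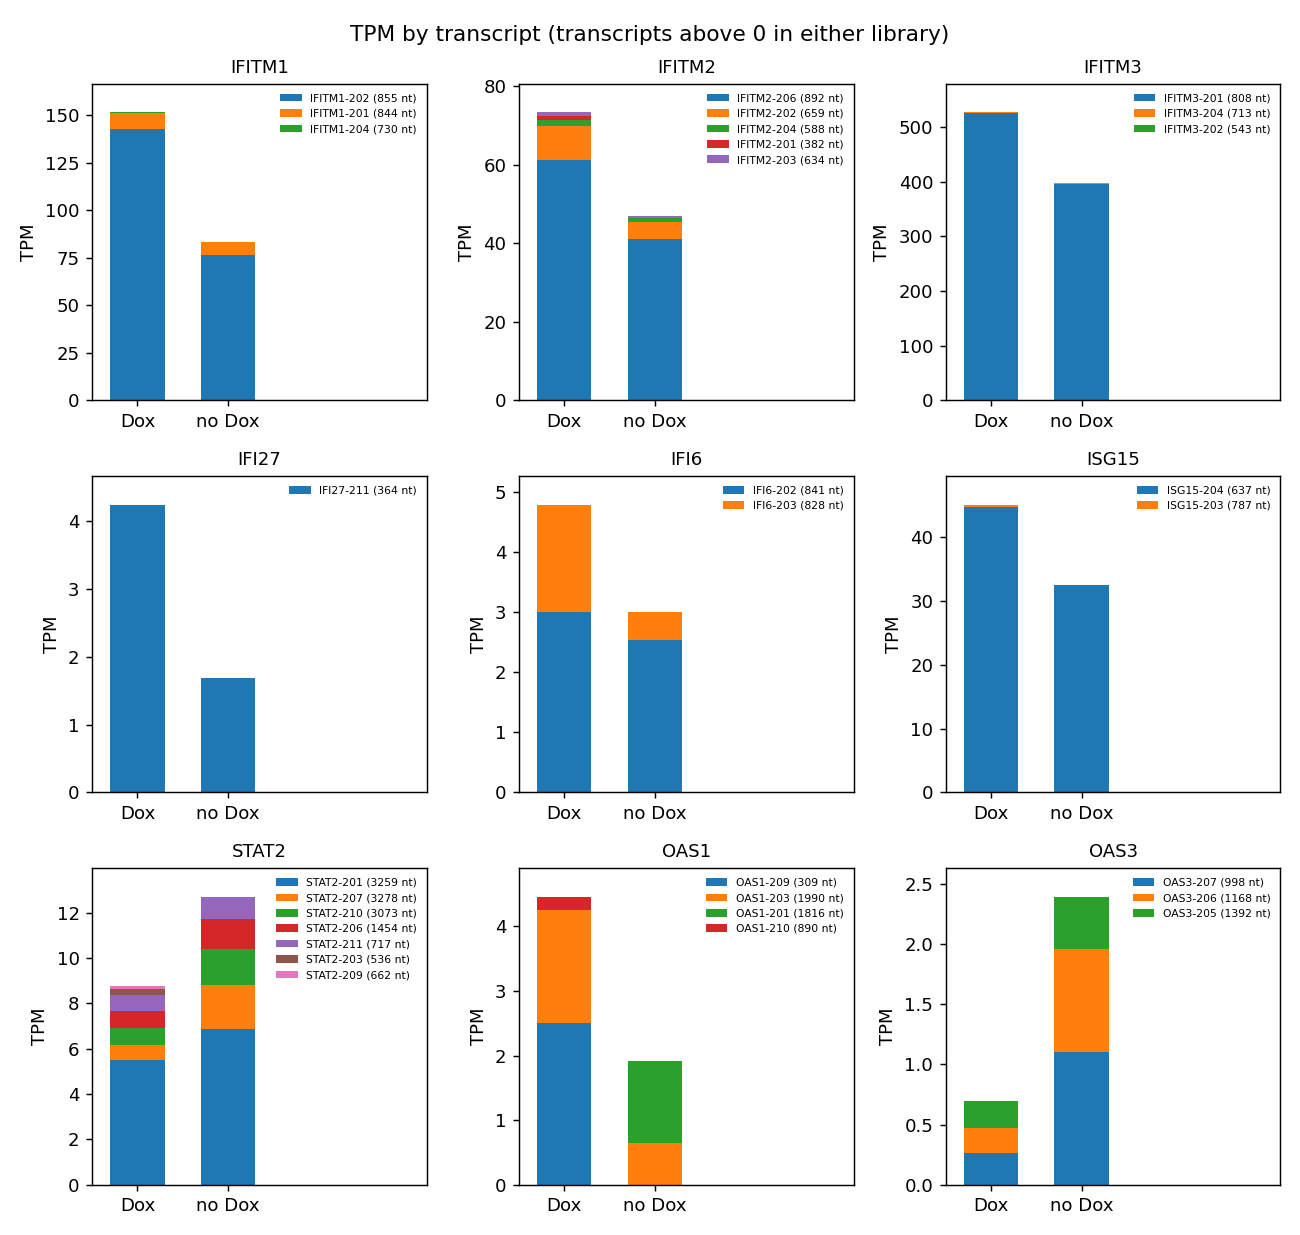
TPM stacked by transcript for each of the 9 genes, with Dox (left bar) and without Dox (right bar), for transcripts above 0 in either library; lengths are in the legends and each panel has its own axis from 0. One transcript makes up nearly all of IFITM1, IFITM3 and ISG15 in both libraries, while the OAS1 bars are made of different transcripts: OAS1-209 (2.50 TPM) only with Dox and OAS1-201 (1.28 TPM) only without Dox.

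ISG15 (ENSG00000187608, chromosome 1, 1001138 to 1014540) codes for a ubiquitin-like protein that is joined to other proteins during the antiviral response. It was at 45.2 TPM with Dox and 32.6 TPM without Dox, a log2 fold change of 0.46. Its fragment ratio was 1.32 (1.08 to 1.61), from 279 fragments with Dox and 163 without Dox. ISG15-204, with 495 coding bases, held 99.3% of the TPM with Dox and all of it without Dox. No 31-base word of it occurs in another gene's transcripts. The difference was under 1.5-fold, and its counting interval stayed above 1.

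IFI6 and IFI27 code for small hydrophobic proteins of one family, IFI6 being known for restraining cell death. IFI6 (ENSG00000126709, chromosome 1, 27666061 to 27672218) was at 4.79 TPM with Dox and 3.002 TPM without Dox, a log2 fold change of 0.53. For the gene, the fragment ratio of 1.51 had an interval of 0.90 to 2.58, from 47.4 fragments with Dox and 24.0 without Dox. No difference in the gene sum was therefore detectable at this depth. Most of the TPM difference lay in IFI6-203, at 1.78 TPM with Dox and 0.46 TPM without Dox. Its fragment ratio was 3.27 (1.07 to 13.4), from only 17.4 fragments with Dox and 3.62 without Dox. IFI6-202, which differs from IFI6-203 by 12 coding bases (390 against 402), was at 3.01 TPM with Dox and 2.54 TPM without Dox. The ratio of IFI6-202 was 1.16 (0.63 to 2.15). The share of IFI6-203 in the gene was 37.2% with Dox and 15.4% without Dox.

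IFI27 (ENSG00000165949, chromosome 14, 94104836 to 94116698) had the largest log2 fold change of the 7 genes that were higher, 0.97, at 4.24 TPM with Dox and 1.68 TPM without Dox. All of this TPM lay on IFI27-211, an annotated transcript of only 364 nt with 289 coding bases. The 716-nt IFI27-210, with 366 coding bases, was listed at 0 in both libraries. Of the 15 transcripts annotated for the gene, 12 had no row and were not analysed here. A transcript this close to the length of a fragment gives no usable fragment estimate. With a pseudocount of 5 TPM in place of 1 TPM the log2 fold change was 0.47, under 1.5-fold.

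OAS1 and OAS3 code for enzymes that bind double-stranded RNA and make short oligoadenylates, a messenger of the antiviral response. They stood on opposite sides. OAS1 (ENSG00000089127, chromosome 12, 112906777 to 112933222) was at 4.46 TPM with Dox and 1.92 TPM without Dox, a log2 fold change of 0.91. Of its TPM with Dox, 2.50 lay on OAS1-209, a transcript of 309 nt with 45 coding bases that was listed at 0 without Dox. Without that short transcript and the others under 600 nt, the log2 fold change of OAS1 was 0.02. In estimated fragments the ratio was 0.99 (0.66 to 1.5), from 57.6 fragments with Dox and 44.7 without Dox. A higher OAS1 level is therefore not shown on its longer transcripts.

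The longer OAS1 transcripts differed from each other. OAS1-203 (1990 nt, 1092 coding bases) was at 1.75 TPM with Dox and 0.64 TPM without Dox, a fragment ratio of 2.65 (1.5 to 4.95). OAS1-201 (1816 nt, 1200 coding bases, with 6 exons against 5) was listed at 0 with Dox and at 1.28 TPM without Dox, which corresponds to 28.7 fragments. OAS1-203 made up 39.3% of the gene's TPM with Dox and 33.4% without Dox. OAS1-210 was at 0.20 TPM with Dox and listed at 0 without Dox. An exact 0 can be a failed split between transcripts that share most of their exons, and whether it was so here was not tested. OAS1-201, OAS1-209 and OAS1-210 were among the 9 of 52 matched transcripts of these genes listed at 0 in 1 library and above 0 in the other.

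OAS3 (ENSG00000111331, chromosome 12, 112938352 to 112973249) was at 0.69 TPM with Dox and 2.39 TPM without Dox, a log2 fold change of -1.003. It was 1 of the 0.967% of all genes that were at least 2-fold lower. The full-length OAS3-201 (6719 nt, 3261 coding bases) was listed at 0 in both libraries. The TPM lay on partial transcripts. OAS3-207 was at 0.27 TPM with Dox and 1.10 TPM without Dox, and the retained-intron OAS3-206 at 0.20 TPM with Dox and 0.85 TPM without Dox. OAS3-205 was at 0.23 TPM with Dox and 0.43 TPM without Dox. All 3 were lower with Dox, but they amounted to 11.3 fragments with Dox and 29.5 without Dox, a ratio of 0.29 (0.13 to 0.60). With a pseudocount of 5 TPM the OAS3 log2 fold change was -0.38, under 1.5-fold.

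STAT2 (ENSG00000170581, chromosome 12, 56341597 to 56360155) is the signal carrier of the group, which takes the signal from the receptor to the nucleus. It was at 8.78 TPM with Dox and 12.7 TPM without Dox, a log2 fold change of -0.49. The fragment ratio was 0.65 (0.56 to 0.74), from 403 fragments with Dox and 481 without Dox. It passed 1.5-fold in fragments, at -0.63, and not in TPM. All 5 STAT2 transcripts above 0.5 TPM were lower with Dox. The coding STAT2-201 (2553 coding bases) was at 5.48 TPM with Dox and 6.84 TPM without Dox, with a fragment ratio of 0.78 (0.66 to 0.92). The coding STAT2-210 was at 0.75 TPM with Dox and 1.59 TPM without Dox, a ratio of 0.46 (0.30 to 0.70).

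The non-coding STAT2-207, which covers the 3′ part of the gene, was at 0.68 TPM with Dox and 1.97 TPM without Dox, with a ratio of 0.34 (0.22 to 0.50). The retained-intron STAT2-206 was at 0.74 TPM with Dox and 1.33 TPM without Dox. STAT2-211 was at 0.74 TPM with Dox and 0.97 TPM without Dox. STAT2-201 made up 62.4% of the gene with Dox and 53.9% without Dox. The protein-coding transcripts of STAT2 alone gave a log2 fold change of -0.38, against -0.49 for all its transcripts.

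**Figure D3:**
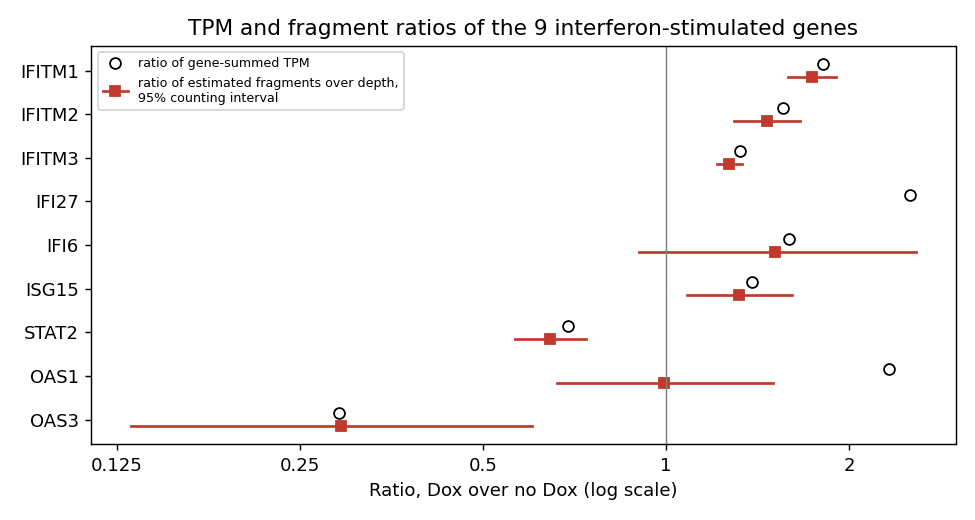
Ratio of Dox to no Dox (log axis) for each of the 9 genes, as gene-summed TPM (open circles) and as estimated fragments over depth on transcripts of at least 600 nt (red squares with 95% counting intervals, 1 library per group). The intervals of the IFITM genes and ISG15 lie above 1, those of STAT2 and OAS3 below it, and those of IFI6 and OAS1 include 1; IFI27 has no fragment estimate.

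The rest of the interferon pathway was read from 11 gene lists with 154 genes beside the 9. Of these, 86 reached a mean of 1 TPM, 32 were lower than that, 32 were listed at 0 in both libraries and 4 had no row in use here. Of the 86 genes, 60 were higher with Dox and 26 lower, beside 53% of all genes higher. Their median log2 fold change was 0.18, beside 0.02 over all genes. Past 1.5-fold upward were 8 (9.30%) and downward 1 (1.16%), beside 5.32% and 3.9% of all genes. When the libraries were rescaled to the median ratio of all genes, 3 were higher and 1 lower, since several lay just past 1.5-fold. The shift of the median itself was 0.02 on the log2 scale.

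Among the ligands, 13 of 14 interferon genes were listed at 0 in both libraries. The other, IFNA5, looked up after its values were seen, was listed at 0 with Dox and at 0.098 TPM without Dox, which is about 1 fragment. Of the receptors and kinases, 8 were measured, 5 higher with Dox and 3 lower. At least 1.5-fold higher were 2 (25%) and lower 0, beside 5.32% and 3.9% of all genes. IFNGR2, a subunit of the interferon gamma receptor, was at 11.4 TPM with Dox and 6.62 TPM without Dox, with a fragment ratio of 1.58 (1.32 to 1.89). The other subunit gene, IFNGR1, was at 153 TPM with Dox and 121 TPM without Dox. The kinase gene JAK1 was at 17.0 TPM with Dox and 10.9 TPM without Dox, but 4.79 TPM of the value with Dox lay on transcripts listed at 0 without Dox, and its fragment ratio was 1.14 (1.04 to 1.25). IFNAR2, a subunit of the receptor for interferon alpha and beta, was at 18.01 TPM with Dox and 18.26 TPM without Dox. TYK2, a kinase gene looked up after its values were seen, was at 14.3 TPM with Dox and 21.6 TPM without Dox. Its fragment ratio was 0.82 (0.73 to 0.92).

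None of 7 transcription factor genes passed 1.5-fold. STAT3 was at 47.2 TPM with Dox and 40.4 TPM without Dox. IRF9 was not analysed here. Of 10 sensors and adaptors, only MYD88, an adaptor of Toll-like receptors, passed 1.5-fold (10%, beside 5.32% of all genes). It was at 3.36 TPM with Dox and 1.91 TPM without Dox. Its log2 fold change of 0.58499 was barely past the threshold of 0.58496. At its mean level, 1 to 5 TPM, 11.6% of all genes passed upward. MAVS, the mitochondrial adaptor of the RNA sensors, was at 23.8 TPM with Dox and 24.9 TPM without Dox. TRIM25, a ubiquitin ligase of that pathway, was at 35.7 TPM with Dox and 45.8 TPM without Dox, with a fragment ratio of 0.75 (0.72 to 0.79).

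Of 8 genes measured on the feedback inhibitor list, which also holds the non-inhibitors UBA7, an ISG15 conjugation gene, and ISG20, none passed 1.5-fold. The most abundant, PTPN11 and PIAS1, had log2 fold changes of -0.03 and 0.27. Of the ISG15 conjugation genes, 4 were measured. UBE2L6, the enzyme that hands ISG15 to its ligases, was at 36.9 TPM with Dox and 24.3 TPM without Dox, with a fragment ratio of 1.45 (1.28 to 1.64). USP18, which removes ISG15 and dampens the receptor, was at 31.2 TPM with Dox and 35.3 TPM without Dox, with a ratio of 0.86 (0.79 to 0.94).

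Among the closest relatives of the 9 genes, levels were between 0 and 6.91 TPM. OAS2 and OASL, named after their values were seen, were at 0.030 and 0.070 TPM with Dox, and both were listed at 0 without Dox. IFITM5 was listed at 0 in both libraries. IFI27L1 was at 1.72 TPM with Dox and 6.91 TPM without Dox (log2 fold change -1.54), on 1 of its 13 annotated transcripts, and its fragment ratio was 0.24 (0.11 to 0.46). IFI27L2 was at 2.07 TPM with Dox and 1.26 TPM without Dox. IFI27L1 and its neighbour IFI27 thus differed in opposite directions.

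Of 17 other antiviral effector genes, 13 were higher with Dox and 2 (11.8%) at least 1.5-fold, beside 53% and 5.32% of all genes. EIF2AK2, the RNA-activated kinase PKR, was at 22.9 TPM with Dox and 14.8 TPM without Dox, with a fragment ratio of 1.84 (1.71 to 1.97). APOBEC3C, a cytidine deaminase gene, was at 16.1 TPM with Dox and 9.90 TPM without Dox, with a ratio of 1.47 (1.29 to 1.67). The most abundant effectors, BST2 (tetherin) and ADAR, an RNA-editing deaminase, had log2 fold changes of 0.06 and 0.04. MX1 and IFIT1, widely used marker genes of an interferon response that were looked up after their values were seen, lay on different sides. MX1 was at 2.90 TPM with Dox and 2.59 TPM without Dox, with a fragment ratio of 1.53 (1.13 to 2.09), and 1.10 TPM of its value without Dox lay on transcripts listed at 0 with Dox. IFIT1 was at 2.91 TPM with Dox and 3.62 TPM without Dox, with a ratio of 0.78 (0.57 to 1.06), an interval that includes 1. The other MX and IFIT genes compared, MX2, IFIT3 and IFIT5, were higher, with log2 fold changes of 0.35, 0.26 and 0.13. Their fragment intervals include 1 as well. IFIT2, RSAD2, IFI44L and CXCL10, also looked up after their values were seen, were listed at 0 in both libraries.

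Of 26 further interferon-stimulated genes, 16 were higher and 2 (7.69%) at least 1.5-fold, beside 53% and 5.32% of all genes. NMI, a STAT-interacting protein gene, was at 4.09 TPM with Dox and 2.12 TPM without Dox. TRIM26 was at 1.80 TPM with Dox and 0.20 TPM without Dox, on 1 of its 8 annotated transcripts. Its mean of 1.001 TPM was barely over the minimum. LGALS3BP, a secreted glycoprotein gene and the most abundant of the list, was at 186 TPM with Dox and 148 TPM without Dox. LAP3, a leucine aminopeptidase gene, was at 105 TPM with Dox and 89.9 TPM without Dox.

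All 8 antigen presentation genes measured were higher with Dox in TPM, beside 53% of all genes, none by 1.5-fold, with a median log2 fold change of 0.20. B2M, the light chain of class I molecules, was at 570.4 TPM with Dox and 506 TPM without Dox, and CD74, the invariant chain of class II, at 113 TPM with Dox and 107 TPM without Dox. In estimated fragments the ratio was 1.09 (1.05 to 1.13) for B2M and 0.98 (0.92 to 1.05) for CD74, which was thus not higher on that scale. The class I genes HLA-C, HLA-E, HLA-F and HLA-G were listed at 0 in both libraries, on matched transcripts only.

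**Figure D4:**
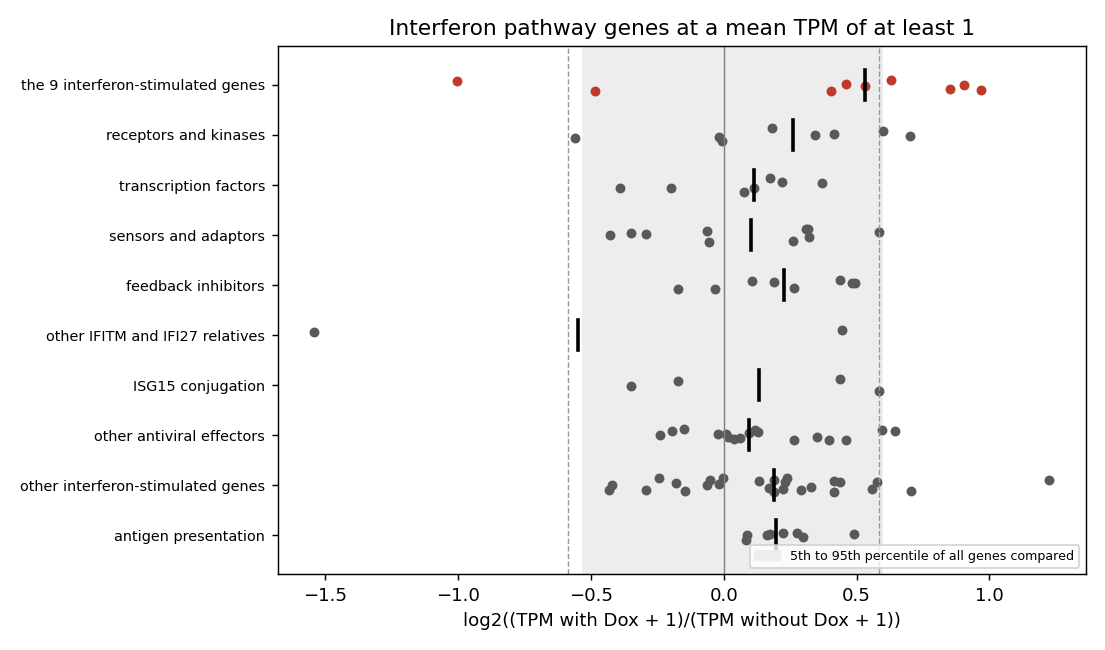
Log2 fold change of each gene at a mean TPM of at least 1, for the 9 interferon-stimulated genes (red) and for the pathway lists (grey, a gene in several lists is drawn in each); black bars are medians, dashed lines mark 1.5-fold and the band spans the 5th to 95th percentile of all 11582 genes. Most pathway genes lie inside the band, with IFI27L1 at -1.54 and TRIM26 at 1.22 farthest out, each on 1 matched transcript.

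The promoter scan covered other genes as well. Of the pathway genes with a promoter window, 30 held the core, with a median log2 fold change of 0.17. Past 1.5-fold upward were 4 of these (13.3%) and downward 0. The 38 without it had a median of 0.18, with 3 past 1.5-fold upward (7.89%) and 1 downward. Across all compared genes with a window, the 336 that held the core had a median of 0.08, and the 8711 that did not, 0.02. At least 1.5-fold higher were 7.74% of the genes with the core and 4.58% of those without. The 32 genes with 2 or more copies had a median of 0.13, with 4 (12.5%) past 1.5-fold upward and 1 (3.13%) downward. These 32 include 6 of the 9 genes chosen by these same values. IFITM1, IFI27 and the pathway gene TRIM26 are among the 4 upward, and OAS3 is the 1 downward. The sets over all genes include those of the 9 that have a window, the pathway sets do not, and none was tested. Of the 6 genes of the 9 that held the core, IFITM1, IFITM3, IFI27, IFI6 and ISG15 were higher with Dox and OAS3 lower. Of the 2 whose window held no match, OAS1 was higher, by 0.02 on transcripts of at least 600 nt, and STAT2 lower.

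**Figure D5:**
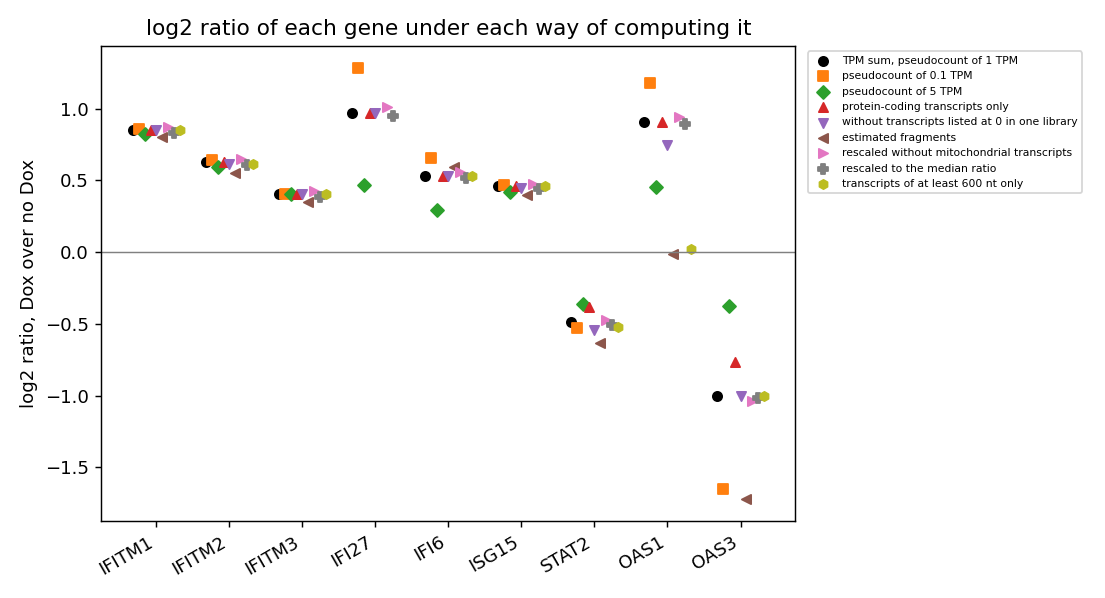
Log2 ratio of Dox to no Dox for each of the 9 genes under each way of computing it (black circles, TPM sums with a pseudocount of 1 TPM; other symbols, the alternatives in the legend). IFITM1, IFITM3 and ISG15 stay within narrow ranges (0.80 to 0.87, 0.35 to 0.42 and 0.40 to 0.48 over the alternatives), while OAS1 runs from -0.01 to 1.18 and OAS3 from -1.72 to -0.38.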

How the data were processed

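Polyadenylated RNA was sequenced from 1 library per group. The authors deposited TPM values (length-normalised, scaled to 1000000 within each library) for 184844 Ensembl transcripts. Trimmomatic, Salmon and GRCh38.p13 are named in the submitters' processing notes. For versions, options, strandedness and transcript annotation, nothing is given in the sources used here.

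Transcripts were matched by identifier without version to GENCODE release 29 (161798 matched, with 93.3% of the TPM in each library) and summed per gene. A fold change is the ratio of TPM plus 1 between the libraries on the log2 scale, Dox over no Dox, and so understates changes of low genes. Genes at a mean of at least 1 TPM were compared, and 1.5-fold was counted.

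Fragments were estimated as TPM times (length - 310 nt with Dox, 300 nt without Dox), divided by 53.1 and 67.5, on transcripts of at least 600 nt. Offsets and units were fitted to low values of single-transcript genes, of which 79.6% and 76.7% fell within 0.1 of a whole number. Intervals are Clopper-Pearson at 95%. A transcript of 2000 nt with 3 fragments, the floor, has 0.094 TPM with Dox and 0.119 without Dox.

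Named genes were all 9 and, per list, up to 4 past 1.5-fold and the 2 most abundant; transcripts were named at 0.5 TPM or more, or where listed at 0. Members, lists and rules were chosen with earlier results of these data known. Python 3.11.15, pandas 2.3.3, NumPy 2.4.6 and SciPy 1.17.1 were used, and the procedure was tested on simulated data. The alternatives tried numbered 10, with 1 chosen after seeing the data. Some results on other pathway genes are not reported here.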

Additional observations from a re-analysis of the deposited data

How the results depend on the processing

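No paired analysis was possible because each group has 1 library. The summed IFITM log2 fold change moved by less than its counting interval in each alternative run. Of the 9 genes, 4 were at least 1.5-fold higher and 1 lower. These counts were 2 and 0 with a pseudocount of 5 TPM, 2 and 0 with a minimum mean of 5 TPM (5 genes left), and 2 and 2 in estimated fragments (8 genes left). The 2 higher in estimated fragments were IFITM1 and, just past 1.5-fold, IFI6, whose counting interval of 0.90 to 2.58 includes 1. On transcripts of at least 600 nt alone, chosen after seeing the data, 2 were higher (8 genes left). OAS1 reversed, to -0.013, in estimated fragments. For the other pathway genes, where 8 were higher and 1 lower, a pseudocount of 0.1 TPM gave 14 and 4, a pseudocount of 5 TPM gave 0 higher, a minimum of 5 TPM gave 5 and 0, protein-coding transcripts alone gave 2 lower, and rescaling to the median ratio gave 3 higher. Their median of 0.18, beside 0.02 over all genes, was 0.12 with a pseudocount of 5 TPM, 0.12 with no minimum and 0.12 in estimated fragments. Over all genes the medians under these settings were 0.02, 0.02 and -0.02. In the main setting, 5.32% of all genes were at least 1.5-fold higher and 3.9% lower. These shares were 7.23% and 5.52% with a pseudocount of 0.1 TPM, and 2.03% and 1.502% with 5 TPM. With a minimum of 5 TPM they were 3.72% and 2.83%, and in estimated fragments 5.04% and 4.96%. They were 4.66% and 3.46% for protein-coding transcripts, 4.88% and 4.15% after rescaling, and 4.36% and 2.95% on transcripts of at least 600 nt. The causes were not tested, apart from fewer genes under the stricter minimum. Depth limits IFI6, IFI27, OAS1 and OAS3, each under 60 estimated fragments a library or without an estimate.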
